A study of Mus musculus with 8 samples.

Results

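Untreated mouse small intestinal organoids were described here by the brightness of their RNA on microarrays, read from the Cy3 channel of 8 arrays. The arrays were Agilent whole mouse genome slides hybridised with 2 dyes. Every array carried Cy3-labelled RNA of control organoids, and beside it Cy5-labelled RNA of a second organoid sample of the same line. A level is log2 of the median Cy3 signal of a spot minus its local background, averaged over the 8 arrays. A gene was a member if at least 1 of its probes was well above background on all 8 arrays and carried no outlier mark, and the brightest such probe stands for the gene. Of 32110 genes or transcript accessions with a probe, 14367 were members. Of these, 11262 had a gene symbol, out of 18745 symbols on the array (60.1%), and 3105 were known by an accession only. The rule used no difference between samples.

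The organoids came from 2 wild-type lines, established independently, and were grown in Matrigel for 6 days in control medium. The Cy5 partner was a control culture, a culture with 3 µM CHIR99021, a culture with 1 mM valproic acid (VPA), or a culture with both compounds, 1 array each per line. CHIR99021 is an inhibitor of the kinase GSK3, and VPA is an inhibitor of histone deacetylases. The labels give no strain, sex, age or intestinal segment. As far as the labels say, the control RNA of a line is the same material on all 4 of its arrays, so the 4 readings of a line are technical and each line is 1 biological sample. No p-value is given between lines. All arrays of a line also lay on the same slide, so line and slide cannot be told apart.

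Small intestinal organoids are closed epithelial cysts that bud into crypt-like domains. Stem cells and Paneth cells sit in the buds, and absorptive enterocytes, goblet cells, enteroendocrine cells and tuft cells differentiate toward the central lumen. Each lineage has its own products, among them lysozyme in Paneth cells, trefoil factor in goblet cells, peptide hormones in enteroendocrine cells, and fatty acid binding proteins in enterocytes.

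Member levels ran from 4.99 to 16.51 with a median of 8.68 (31.7, 411 and 93600 as intensities), and the brightest 10% began at 12.25. The dimmest members with a symbol were Gm4907 (4.99), Pou4f3 (5.04) and Klhl31 (5.06). The 4 readings of a line had a median SD of 0.0621 in line 1 and 0.0639 in line 2, and no Cy3 spot was saturated. Across members, Pearson's r was 0.996 to 0.999 between readings of a line and 0.972 to 0.975 between lines, a description across genes. Between 53.2% and 57.6% of gene spots per array were well above background. Brightness depends on the probe as well as on the RNA: in the 3732 members with more than 1 passing probe, the brightest and dimmest probes differed by a median of 1.75 on the log2 scale. An order of genes is therefore an order of spots, not of transcript numbers. Dim levels were also lifted, since spots without a target read 14.5 to 18 intensity units above their local background. In the software's own background-subtracted signal the dimmest 10% read a median of 0.71 lower (log2 difference -0.71), and the brightest 10% 0.02 higher.

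The brightest named genes were those of protein synthesis, of simple epithelium and of absorption. Ribosomal proteins, the structural proteins of the ribosome, made up 13 of the 20 brightest members with a proper gene symbol and 35 of the 100 brightest members of any kind. Their brightest spot, Rps14, read 16.50, 16.79, 16.85 and 16.92 in line 1 and 16.23, 16.21, 16.26 and 16.34 in line 2 (readings are given in the order of the Cy5 partner: control, CHIR99021, VPA, both). Every line 1 reading lay above every line 2 reading, by less than 2-fold in the means. Readings of the 2 lines lay apart, in either direction, in 9079 of the 14367 members (63.2%), so a lack of overlap is common. Over 68 ribosomal protein members the median level was 15.33. Rplp0 (16.40), Rpl5 (16.26), Rps23 (16.23), Rps29 (16.20) and Rps20 (16.14) followed Rps14.

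Krt8, a keratin of simple epithelia, read 16.24, 16.55, 16.45 and 16.53 in line 1 and 16.14, 16.28, 16.34 and 16.42 in line 2. The lines overlapped, and its partner Krt18 had a level of 15.91. Lgals4, an epithelial galectin, had a level of 16.24 and Cox6a1, a subunit of cytochrome c oxidase, of 16.14. Fau, which encodes a ribosomal protein fused to a ubiquitin-like peptide (15.91), and the RNA-binding protein Hnrnpab (15.92) were also among the 20.

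Among the 5 lineage markers, Lyz1, Tff3 and Fabp1 were in the brightest 10% by the mean of 8 readings, and Lgr5 and Chga were not. In line 1 alone Chga read 13.12 to 13.27, above the 12.25 at which the brightest 10% began. Lyz1, the Paneth cell lysozyme, was brighter than 98.6% of members, with readings of 15.22, 15.02, 15.21 and 15.60 in line 1 and 13.91, 13.87, 14.07 and 14.13 in line 2. All line 1 readings were above all line 2 readings, by 2.40-fold in the means. Tff3, the goblet cell trefoil peptide, read 14.73, 14.93, 14.93 and 15.13 in line 1 and 14.04, 14.14, 14.19 and 14.41 in line 2. The gap was 1.66-fold with no overlap, as 63.2% of all members also showed none. Lyz1 and Tff3 both encode secreted proteins made in quantity by their cells.

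Lgr5, a receptor for R-spondins found on stem cells of the crypt base, was brighter than 69.4% of members. It read 9.52, 9.59, 9.59 and 9.66 in line 1 and 10.85, 10.80, 10.78 and 10.82 in line 2. Line 2 read 2.33-fold higher with no overlap; the SDs of the readings (0.055 and 0.032) are technical, and with 1 sample per line the difference has no replicate check. Chga, chromogranin A of hormone granules, differed most among the 5. It read 13.12, 13.18, 13.27 and 13.19 in line 1 against 7.51, 7.70, 7.57 and 7.59 in line 2, a gap of 48.4-fold, so its mean level of 10.39 described neither line. In organoid RNA of mixed cells, fewer cells of a type and less RNA per cell cannot be told apart.

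Fabp1, the liver-type fatty acid binding protein of enterocytes, had a level of 14.97 but the widest readings of the 5. They were 15.33, 15.85, 13.14 and 15.20 in line 1 and 15.45, 16.69, 14.10 and 13.99 in line 2. The lines overlapped, and the means differed by 1.13-fold. The lowest reading of line 1 was beside VPA and the lowest of line 2 beside both compounds, although the Cy3 RNA was labelled as control throughout.

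**Figure D1:**
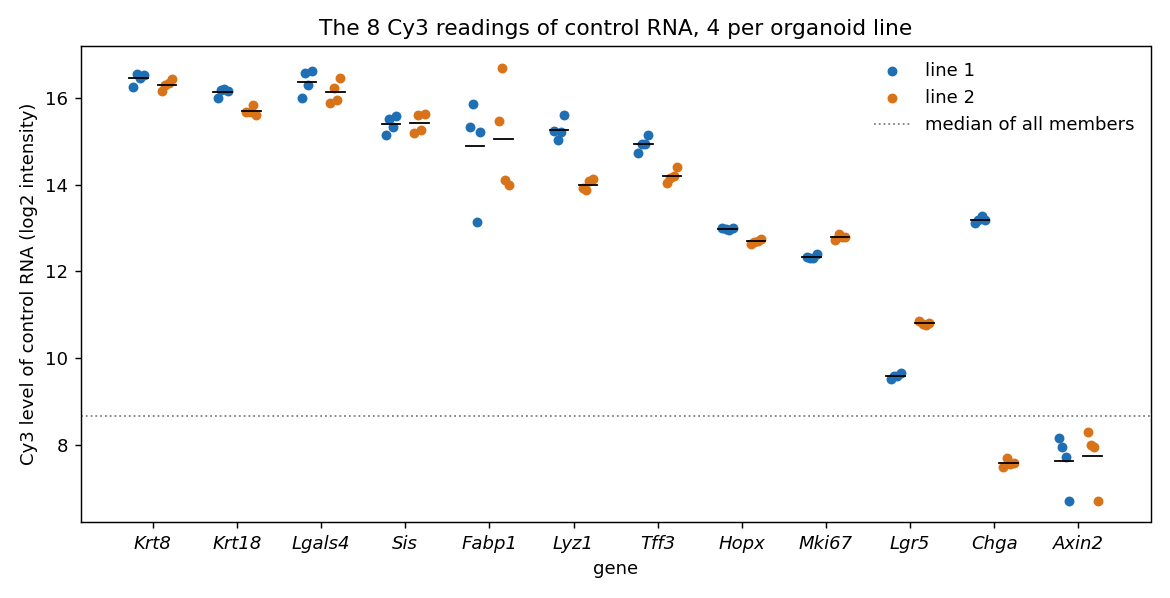
Cy3 readings of control RNA for 12 genes (y axis, log2 intensity), 4 points per organoid line (line 1 blue, line 2 orange), with short black bars at the mean and a dotted line at the median of all members, 8.68. Lgr5 and Chga fall in separate ranges in the 2 lines, Krt8 overlaps, and Fabp1 spreads from 13.14 to 16.69.

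The sequence before the start of 4 of these genes is shown because they differ in level and in how they vary between lines: Fabp1 similar in both lines, Lyz1 higher in line 1, and Chga and Chgb (chromogranin B) both strongly higher in line 1. Each is the 120 bases before the annotated start, from RefSeq on build GRCm38.p6, 5′ to 3′ on the gene's strand. The capitals mark TATAAA (the TATA box), CATAAA (the core letters bound by caudal-type factors such as Cdx2) and TGACG (the core of the cAMP response element, with TGACGTCA as its palindrome). The windows lie at chr6:71199759-71199878 (Fabp1, plus strand), chr10:117292869-117292988 (Lyz1, minus), chr12:102554821-102554940 (Chga, plus) and chr2:132781522-132781641 (Chgb, plus).
Fabp1: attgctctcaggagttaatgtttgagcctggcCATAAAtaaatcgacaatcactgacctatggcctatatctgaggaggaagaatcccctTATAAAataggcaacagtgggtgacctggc
Lyz1: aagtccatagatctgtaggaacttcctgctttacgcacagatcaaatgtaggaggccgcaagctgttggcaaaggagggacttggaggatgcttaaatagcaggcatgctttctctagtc
Chga: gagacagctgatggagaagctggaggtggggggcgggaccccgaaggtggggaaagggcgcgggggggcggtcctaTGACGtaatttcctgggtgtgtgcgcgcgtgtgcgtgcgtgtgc
Chgb: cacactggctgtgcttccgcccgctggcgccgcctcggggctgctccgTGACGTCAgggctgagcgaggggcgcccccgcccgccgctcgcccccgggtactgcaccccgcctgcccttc
TATAAA in Fabp1 began 30 bases before the start and CATAAA 88 bases before it. TGACG began 44 bases before the start of Chga, and in Chgb it was present on both strands. None of the 3 was in the Lyz1 window.

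Over the 250 bases before the start, on both strands, TATAAA was found in 13 of 34 enterocyte members with a promoter in the table (38.2%) and in 4 of 12 Paneth cell members (33.3%). The shares were 8.91% of the 9084 members with a promoter and 14.3% of all 27025 promoters of that length. TATAAA was found in none of the 13 stem cell, 18 proliferation or 13 respiratory chain members. TGACG was found in 6 of 13 enteroendocrine members (46.2%), in the same number of 13 respiratory chain members and in 5 of 13 ribosomal protein members (38.5%), against 29.8% of members and 19.8% of all promoters. CATAAA was found in 4 of 34 enterocyte members (11.8%), against 7.96% and 12.4%. Letters in a window are a description and not a binding site.

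Every gene on the epithelium list that had a probe was a member. These were 20 of 20, against 60.1% of all symbols, with a median level of 12.82 and 11 in the brightest 10%. After the keratins Krt8, Krt18 and Krt19 (15.19) came the claudins of tight junctions, Cldn7 (15.03) and Cldn3 (14.50), and the adhesion molecule Epcam (14.34). Cdx2, the homeobox factor of intestinal identity, had a level of 13.98 and differed between lines by less than 0.01.

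The enterocyte list had 42 members of 48 genes with a probe, a median of 11.55, and 20 in the brightest 10%. Among its brightest were Lgals4, Reg1 (15.61), a regenerating-family lectin, and Sis (15.41), the sucrase-isomaltase of the brush border, followed by Fabp1 and Fabp2 (14.87). Sis read 15.15, 15.50, 15.33 and 15.57 in line 1 and 15.19, 15.61, 15.26 and 15.63 in line 2, so the lines overlapped. Alpi, the intestinal alkaline phosphatase, was dimmer and did not overlap, with 8.91 to 9.05 in line 1 and 11.07 to 11.19 in line 2. This probe differed by 2.13 on the log2 scale, and the second passing probe of Alpi, with a level of 7.05, by 0.99.

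Of the secretory lineages, Paneth cell genes were bright, goblet cell genes intermediate and enteroendocrine genes mixed. The Paneth list had 15 members of 19 genes with a probe, a median of 12.22 and 7 in the brightest 10%. They were led by the defensin Defa3, above Lyz1 (14.63), and then by the lectin Itln1 (13.45) and Defa21 (13.07). Defensin genes are near-identical copies, so a spot may read several of them. Lyz2, the second lysozyme gene, was well above background on some arrays only. The goblet list had 17 members of 21, a median of 10.37, and Tff3, the disulfide isomerase Agr2 (13.16), the lectin Zg16 (12.95) and Fcgbp (12.94) on top. Muc2, the gel-forming mucin, had no matched probe, and neither had the stem cell gene Olfm4.

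The enteroendocrine list had 16 members of 27 genes with a probe (59.3%) and a median of 8.70, close to that of all members. Chgb (13.36), secretin (Sct, 11.52) and Chga were its brightest. Neurod1, a transcription factor of the lineage, was well above background on no array. Tuft cell genes were dim: 16 of 24 were members with a median of 6.67 and none in the brightest 10%, and Plcg2, a phospholipase, was the brightest at 9.93. Their defining factor Pou2f3 was well above background on some arrays only. The M cell list, of the antigen-sampling cells over lymphoid follicles, had 6 members of 9 with a median of 7.62, and its defining receptor Gp2 was well above background on no array.

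Stem cell genes sat above the median member. The list had 21 members of 23 genes with a probe, a median of 10.20, and was led by Hopx (12.84), Cdca7 (12.56), Lrig1 (12.16) and Smoc2 (11.91). Ascl2, the transcription factor of Lgr5 cells, was dimmer at 7.67. Genes of dividing cells were brighter: 20 of 23 were members, with a median of 12.00, led by the replication helicase subunit Mcm6 (14.23), the sliding clamp Pcna (14.04) and the mitotic Birc5 (13.80). Mki67 read 12.30 to 12.41 in line 1 and 12.72 to 12.86 in line 2. Fetal-like epithelial genes had 6 members of 9 with a median of 7.01.

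Markers of cells outside the epithelium were dim, and each list held a smaller share of members than all symbols (60.1%). The red blood cell list, with only 6 genes with a probe, came closest to that share. Leukocyte genes had 4 members of 14, endothelial 3 of 10, fibroblast and muscle 6 of 15, neuron and glia 4 of 11, and red blood cell 3 of 6, with list medians between 5.75 and 6.92. Their defining genes Cd3d, Pecam1, Cdh5, Col1a1 and Col3a1 were well above background on no array, and Ptprc on some arrays only. The exception in brightness was Acta2, smooth muscle actin, which read 11.44, 11.51, 11.43 and 11.41 in line 1 and 12.01, 12.04, 11.94 and 11.91 in line 2, all above the median member. Stomach genes had 4 members of 11, with levels of 5.32 to 5.81.

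Of the metabolic lists, the respiratory chain had the highest median. It had 20 members of 23 genes with a probe, 19 of them in the brightest 10%, and the median was 13.86. It was led by Cox6a1 and the ATP synthase subunits Atp5b (15.64) and Atp5a1 (15.55). The tricarboxylic acid cycle (17 of 18 members, median 12.43) was led by malate dehydrogenase Mdh2 (15.90) and citrate synthase Cs (14.53). Fatty acid oxidation had 26 members of 26 with a median of 12.32, from the thiolase Acaa1a (14.74) and Etfb (14.36) down to 6.88. In contrast, the ketone body list had a median of 11.39.

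Sugar and lipid handling showed a similar range. Glycolysis had 19 members of 21 with a median of 12.43, with Aldoa (15.81), Gpi1 (15.77) and Ldha (15.40) among its brightest. Fructose use was bright, with ketohexokinase Khk at 15.01, the fructose bisphosphatase Fbp1 at 14.03 and the fructose transporter Slc2a5 at 13.40. Chylomicron assembly had 19 of 19 members with a median of 12.87, including the acyltransferase Mogat2 (14.13), while sterol synthesis had 20 of 22 with a median of 12.22, with Msmo1 (14.34) and Hmgcs1 (14.07) among its brightest. Fatty acid synthesis had 11 members of 12 and a median of 10.94, with Scd2 (14.03) and Fasn (13.81) on top.

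Detoxification genes were also bright. The glutathione and xenobiotic list had 30 members of 34, a median of 12.89 and 20 in the brightest 10%, with the glutathione transferases Gstp1 (15.82), Gsta1 (15.40) and Gstm1 (14.83) leading. In the retinol list, alcohol dehydrogenase Adh1 (15.66) stood above Isx (14.04) and Aldh1a1 (13.34), while the median was 8.92. Oat, ornithine aminotransferase, led the arginine and polyamine list at 15.38 (median 10.62), followed by ornithine decarboxylase Odc1 (13.89). Ferritin heavy chain Fth1 (15.34) and the metallothioneins Mt2 (14.84) and Mt1 (13.70) led the metal list. Among antimicrobial genes Reg1, Reg3a (14.48) and Dmbt1 (13.93) were bright, while Lcn2, S100a8 and S100a9 were well above background on no array. On the interferon and antigen presentation list, class I genes H2-K1 (14.98) and H2-D1 (13.46) were bright and the median was 9.27.

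**Figure D2:**
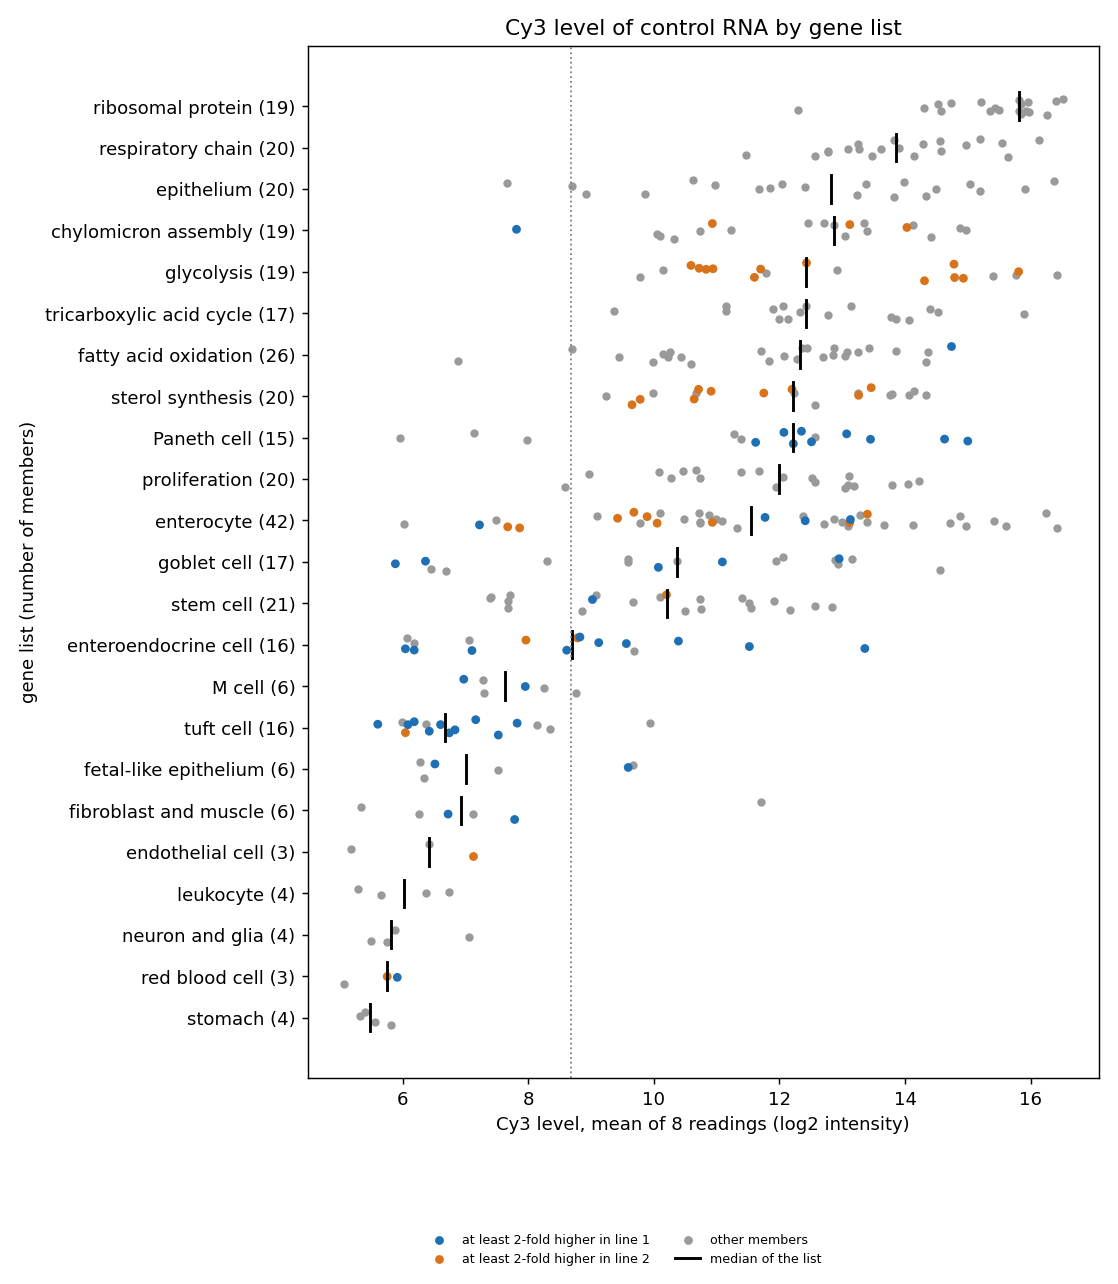
Mean Cy3 level of 8 readings (x axis, log2 intensity) of the members of 23 gene lists (y axis, number of members in brackets), 1 point per gene, with a black bar at the list median and a dotted line at the median of all members, 8.68. Blue and orange points were at least 2-fold higher in line 1 or line 2, and grey points were not. Ribosomal protein and respiratory chain members lie farthest right, and lists of cells outside the epithelium lie left of the dotted line apart from Acta2.

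Paneth, enteroendocrine and tuft cell lists had medians lower in line 2, and glycolysis, sterol synthesis and fatty acid synthesis lists had medians higher in line 2. A gene was counted as different where the means of the 4 readings differed by at least 2-fold and the readings of the lines lay apart. By this rule 472 members were higher in line 1 (3.29% of those compared) and 364 in line 2 (2.53%), while the median difference in either direction was 0.235 on the log2 scale. Differences over 8-fold were found in 43 genes higher in line 1 and 8 higher in line 2. The Cy5 channel of the 2 control arrays read control RNA of each line in the other dye: all 802 counted genes with a value there differed in the same direction. The lines, slides and probes were the same, so this compares the dyes and is no replicate of the line differences.

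**Figure D3:**
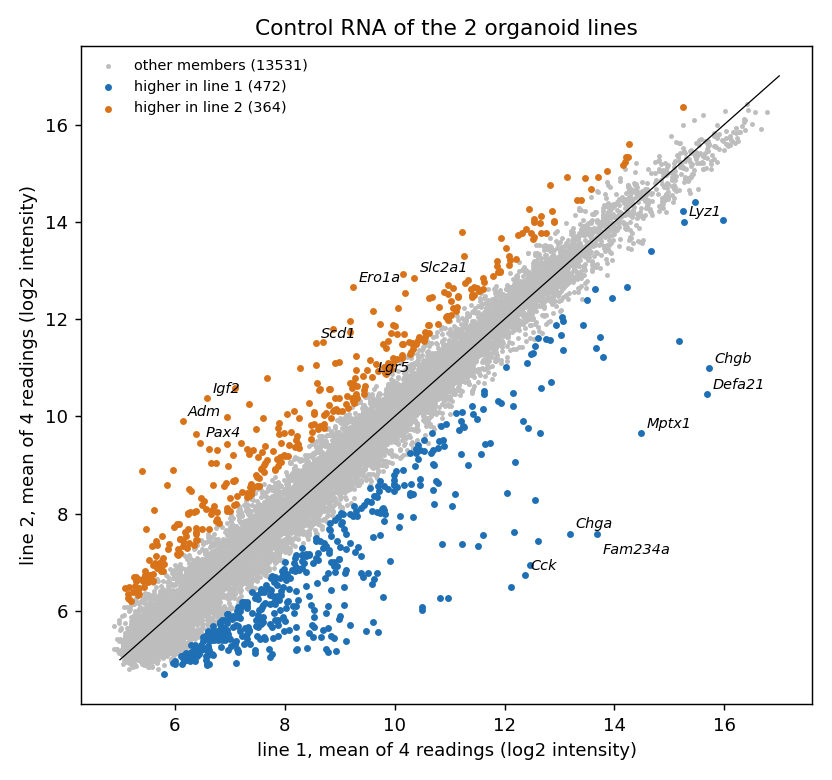
Mean of the 4 Cy3 readings in line 1 (x axis) against line 2 (y axis), log2 intensity, 1 point per member, with the line of equality in black. The 472 genes counted as higher in line 1 are blue, the 364 higher in line 2 orange, and Chga, Chgb, Cck, Defa21, Mptx1 and Fam234a lie farthest below the line of equality among the genes labelled.

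Among list members, the widest gap was that of the enteroendocrine gene Cck. Of the 16 members, 10 were counted as higher in line 1 and 2 as higher in line 2. Cck, cholecystokinin, read 12.33 to 12.44 in line 1 and 6.71 to 6.77 in line 2 (49.6-fold). Chgb read 15.48, 15.59, 15.88 and 15.99 in line 1 and 10.95, 10.94, 10.99 and 11.07 in line 2 (26.9-fold), and neurotensin (Nts) differed by 26.1-fold. Of the 27 genes of the list with a probe, a further 8 were well above background in line 1 only and 0 in line 2 only. Of all 18745 symbols with a probe, 350 and 141 were. Among the 8 were glucagon (Gcg, at least 264-fold higher), Gip (at least 206-fold) and somatostatin (Sst, at least 43.6-fold). These bounds set the line 1 mean against the lowest signal well above background on each line 2 array, or the probe's own reading where that was higher. The 2 genes in the other direction were transcription factors: Neurog3, which starts the lineage, read 7.48, 7.69, 7.60 and 7.65 in line 1 and 9.95, 9.94, 9.96 and 9.99 in line 2, and Pax4 read 6.35 to 6.54 and 9.44 to 9.50.

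Paneth cell genes were lower in line 2 in 15 of 15 members, of which 9 were counted, with a median difference of -1.37 against 0.02 for all members. Defa21 read 15.46, 15.53, 15.85 and 15.88 in line 1 and 10.49, 10.54, 10.48 and 10.31 in line 2 (37.4-fold). Mptx1, a pentraxin, read 14.29 to 14.61 and 9.62 to 9.67 (28.8-fold), while Defa3 differed by 3.84-fold. The 6 members not counted were Pnliprp2, just under the 2-fold threshold with readings apart, and Wnt3, Dll4, Tgfa, Cd24a and Nupr1, which differed by 1.15-fold to 1.26-fold. Tuft cell genes had 10 of 16 members counted higher in line 1 and 1 in line 2, and goblet genes 5 of 17 higher in line 1 and none in line 2. Retnlb, a goblet cell resistin-like peptide, was well above background in line 1 only, at least 616-fold higher.

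In the opposite direction, glycolysis genes were higher in line 2 in 19 of 19 members, 12 counted, with a median difference of 1.11. With arrays centred on their 75th percentile, 18 of 19 were. Slc2a1, the glucose transporter GLUT1, read 10.39, 10.30, 10.36 and 10.37 in line 1 and 12.77, 12.86, 12.84 and 12.90 in line 2 (5.61-fold). Aldoa differed by 1.11 on the log2 scale. Sterol synthesis genes were higher in line 2 in 20 of 20 members, 9 counted (median difference 0.92), and fatty acid synthesis genes in 11 of 11, 4 counted (0.78). Scd1, a stearoyl-CoA desaturase, read 8.36, 8.55, 8.59 and 8.71 in line 1 and 11.49, 11.53, 11.43 and 11.57 in line 2 (7.73-fold).

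Several other lists were closer between lines. None of the 20 epithelium, 20 proliferation, 17 tricarboxylic acid cycle, 20 respiratory chain or 19 ribosomal protein members was counted. Their median differences were -0.04, 0.36, 0.27, 0.33 and -0.50. Higher in line 2 were 19 of 20 proliferation, 15 of 17 tricarboxylic acid cycle and 19 of 20 respiratory chain members. Of the epithelium list 9 of 20 were, and of all members 7497 of 14367. Other sugar and lipid lists had smaller median differences than glycolysis and the synthesis lists. The medians were 0.08 for fatty acid oxidation (1 of 26 counted) and 0.18 for ketone body genes (0 of 6). They were 0.21 for chylomicron assembly (4 of 19, 3 of them higher in line 2) and 0.36 for gluconeogenesis and fructose use (2 of 11). Of all members, 3.29% were counted higher in line 1 and 2.53% in line 2, so these latter lists held larger counted shares. The lower intestine list was not among the closer ones, with a median of -0.83. Of its members, 3 of 6 were counted higher in line 1 (Nts, the hormone Pyy and the transcription factor Osr2). The other 3 read higher in line 2 by 0.18 to 0.75. Nts and Pyy are also on the enteroendocrine list. The upper intestine list had a median of 0.30, with 5 of 6 members higher in line 2, 2 of them counted. The colon list had a median of 0.44, with 5 of 5 members higher in line 2, 2 of them counted. Ribosomal protein genes were lower in line 2 in 19 of 19 (in 18 of 19 after quantile normalization). The dimmer second probe of Rpl5 (11.68) went the other way, higher in line 2 by 0.46. The enterocyte list was split, with 9 of 42 counted higher in line 2 and 4 in line 1, and the stem cell list had 1 each way: Lgr5 in line 2 and Nrn1, a neuritin, in line 1 (-2.15).

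**Figure D4:**
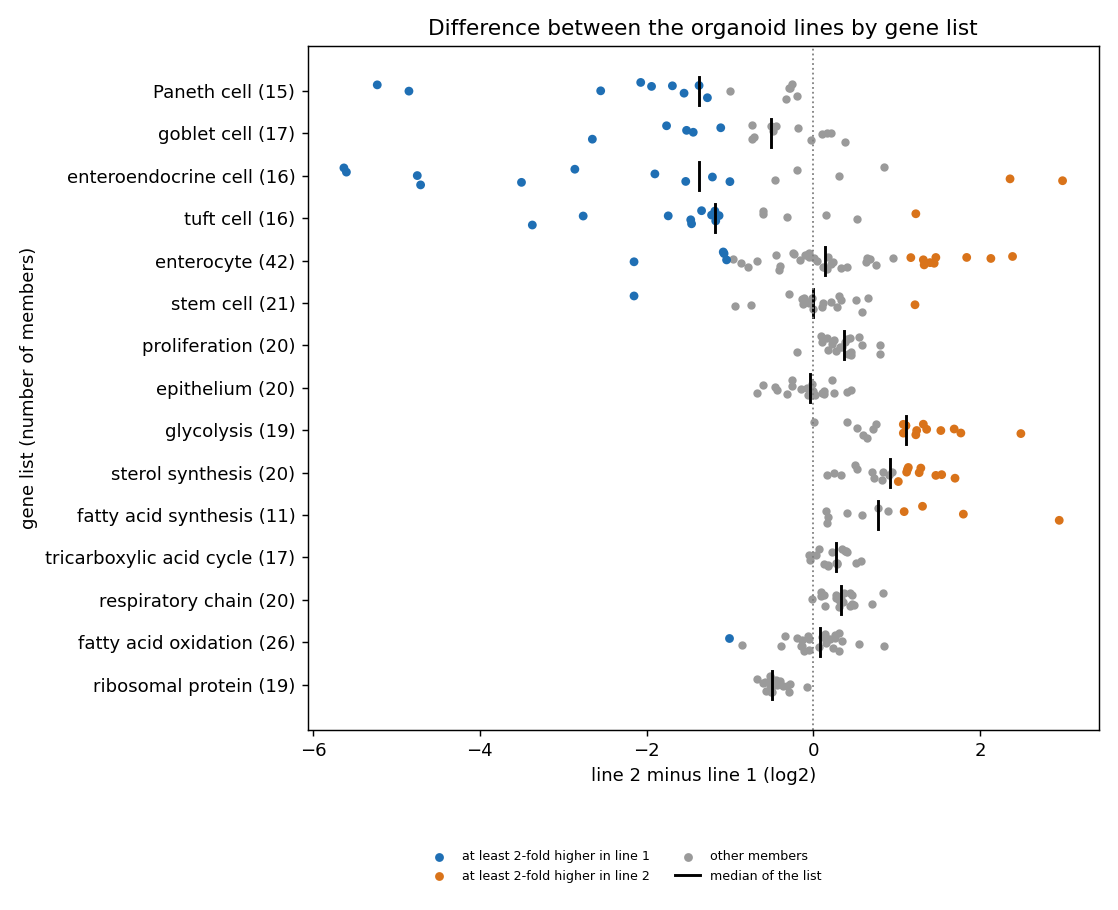
Difference of the Cy3 level between the lines (x axis, line 2 minus line 1, log2) for the members of 15 gene lists (y axis), 1 point per gene, with a black bar at the list median. Blue and orange points were at least 2-fold higher in line 1 or line 2 with readings apart, and grey points were not. Paneth cell members all lie left of 0, glycolysis, sterol and fatty acid synthesis members right of 0, and the epithelium list is centred near 0.

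Of the 10 largest differences higher in line 1, 6 lay on the Paneth or enteroendocrine lists: Cck, Chga, Defa21, Mptx1, Chgb and Nts. The other 4 were Fam234a (68.1-fold), the sperm protamine Prm1 (49.6-fold), alpha-fetoprotein (Afp, 46.0-fold) and the monoamine oxidase Maob (35.9-fold). Each of these 10 differences rests on 1 passing probe, with no second probe of the gene beside it. The 10 largest in the other direction were Igf2 (13.8-fold), a growth factor, and Adm (13.5-fold), adrenomedullin, followed by Nr2e3, Mgarp, Ero1a, Meis2, Stc2, Upk3b, Pax4 and Scd1, from 11.3-fold to 7.73-fold. Ero1a, an oxidase of the endoplasmic reticulum, read 9.28, 9.30, 9.13 and 9.25 in line 1 and 12.74, 12.75, 12.86 and 12.26 in line 2, and its second passing probe differed by 3.66 on the log2 scale. Meis2 also had a second passing probe, which differed by 2.86. The rest of these 10 had 1 passing probe each.

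None of the 10 sex-linked genes was a member, because each well-measured one was above background in 1 line only. Xist, the RNA that coats the inactive X chromosome, read 11.98, 11.96, 12.06 and 12.14 in line 1 and 4.25 to 4.48 in line 2. The Y-linked genes Eif2s3y (at least 74.5-fold), Ddx3y (at least 19.1-fold) and Kdm5d (at least 7.0-fold) were above background in line 2 only. Tsix, antisense to Xist, was above background in line 1 only, and Uty, Zfy1, Zfy2, Sry and Usp9y on no array. Xist, the Y-linked genes, line and slide moved together in these data, and what each adds to the differences between lines cannot be told apart.

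A last question was whether the Cy3 reading of control RNA moved with the Cy5 sample beside it, since the labels give the same control RNA on every array of a line. It was tested with limma over all members, with Benjamini-Hochberg adjustment, 2 arrays per partner. Beside CHIR99021 no gene passed an adjusted p of 0.05, without or with the line as a replicate block (53 and 882 at an unadjusted limma p under 0.05). Beside VPA 1 rose (0.00696%), a transcript without a gene symbol, and beside both compounds 2 rose (0.0139%), that transcript and Grin2d, a glutamate receptor subunit. Without the block, differences between the lines count as spread among arrays, which makes it harder for a gene to pass. For Chga beside both compounds the SE was 3.36 without the block and 0.06 with it. With the line as a replicate block, which pairs the arrays, 2 rose beside VPA (0.0139%), and beside both 39 rose (0.271%) and 111 fell (0.773%). With 1 array left out, these 150 became 3 (either control array), 10 (either VPA array), 14 (either CHIR99021 array), 296 (line 1 array with both compounds) or 540 (line 2 array with both). Without the block, leaving out any array left 0 genes beside VPA and 1 beside both.

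Crip2, a LIM-domain protein, moved most among named genes beside both compounds, by 2.73 ± 0.39 (SE, log2; limma adjusted p = 0.536, and 0.438 to 1.0 over the settings tried). With the block the SE was 0.17 and the limma adjusted p = 0.0107 (0.000675 to 0.168). Its Cy3 readings were 7.48, 7.45, 10.10 and 10.46 in line 1 and 8.23, 8.38, 10.5 and 10.72 in line 2, high on the 4 arrays whose partner had received VPA. Its Cy5 readings on the same arrays were 8.71, 9.94, 14.80 and 15.13 in line 1 and 9.56, 10.81, 15.28 and 15.24 in line 2, high on the same arrays. Grin2d moved by 1.78 ± 0.09 (limma adjusted p = 0.0152, and 0.00947 to 0.384 over the settings tried), with Cy3 readings of 7.0, 6.92, 8.11 and 8.81 in line 1 and 6.94, 6.95, 8.06 and 8.69 in line 2.

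Axin2, a Wnt feedback gene, read 8.17, 7.97, 7.73 and 6.73 in line 1 and 8.30, 8.01, 7.97 and 6.73 in line 2, lowest beside both compounds in each line. The change beside both was -1.50 ± 0.11 (limma adjusted p = 0.0899, and 0.0346 to 0.965 over the settings tried). With the block the limma adjusted p was 0.00407 (3.09e-05 to 0.113). With the block, Sult2a8 (-1.47), Zfp932 (-1.28), Nfkbil1 (-1.08) and Nup107 (-1.01) also fell, and Ptms (0.83), Arhgap22 (0.72), Lgals4 (0.59), Sis (0.42) and Tff3 (0.39) rose beside both. On the arrays with both compounds, Cy5 read lower than on the control arrays for these falling genes, and higher for Ptms and Arhgap22. For Tff3 Cy5 read lower: 15.29 against 16.87 in line 1 and 14.34 against 16.27 in line 2. In line 1, Sis (12.64 against 16.55) and Lgals4 (17.27 against 17.87) also read lower in Cy5. Their line 2 control array had no Cy5 value. For Fabp1 the change beside VPA was -1.77 ± 0.53 (limma adjusted p = 1.0 without the block and 0.53 with it). The 32 genes whose Cy5 level was at least 8-fold higher beside both compounds than on the control arrays had a median Cy3 change of 0.36, against 0.03 for all members, and 30 of them read higher in Cy3. The 72 genes at least 8-fold lower in Cy5 had a median Cy3 change of 0.03, and 31 of them read lower in Cy3.

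These shifts touched few levels. Taken from the 2 control arrays alone, the level of 17 members moved by more than 0.5 and that of 316 by more than 0.2, with a largest shift of 1.53, and Crip2 came to 7.86 in place of 9.16. Of the 5 lineage markers Fabp1 moved most, to 15.39 in place of 14.97. Between the dyes on the control arrays, 40 of 13802 members differed by more than 2-fold on both, 31 brighter in Cy5 and 9 in Cy3. The largest were Lrrc58, A1cf, Bmp2k, Grn and Mt2 toward Cy5 (1.93 and 1.66 for Lrrc58 in line 1 and line 2) and Norad, Apol10b, Nrep, Marf1 and Tbc1d12 toward Cy3 (-1.47 and -1.26 for Norad).

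**Figure D5:**
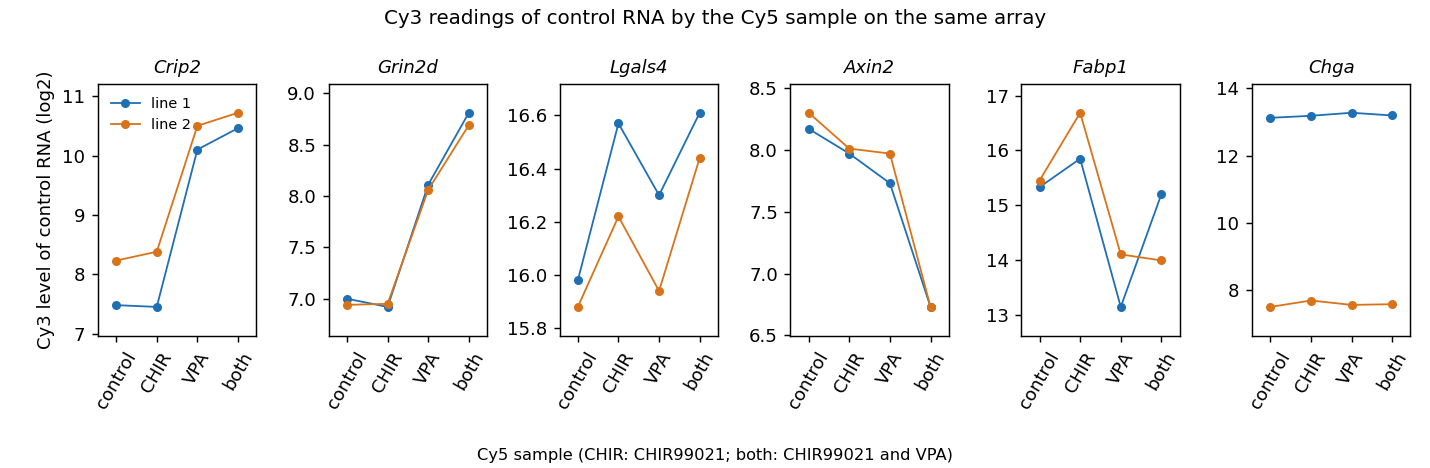
Cy3 readings of control RNA (y axis, log2 intensity, own scale per gene) of Crip2, Grin2d, Lgals4, Axin2, Fabp1 and Chga by the Cy5 sample on the same array (x axis), 1 point per array, with thin lines joining the arrays of a line (line 1 blue, line 2 orange). Crip2 and Grin2d are higher beside VPA and beside both compounds, Axin2 is lowest beside both, and Chga is level within each line.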

How the data were processed

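RNA was labelled with the Quick Amp kit, per the labels' protocols, and per the file headers the spots were quantified in Feature Extraction 10.5.1.1 (Agilent) on a design of build mm9. The deposited values are linear intensity per spot for signal and local background, with flags. Plain subtraction was used, as the member rule sets it. Arrays were centred on the member median, whose mean was added back. Spots of a probe were averaged. Gene symbols were matched by accession to RefSeq for 27471 of 41174 probes.

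Levels and line differences have no test. The partner contrasts used limma 3.58.1 in R 4.3.3 (lmFit, eBayes; threshold 0.05). The fits were tested on simulated data. Replicate numbers are organoid lines in the labels, so they pair the arrays: deviations of same-numbered arrays correlated at 0.924 to 0.953 over 6 pairs of groups. The number of arrays limits the precision.

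Members, 36 gene lists and tests were chosen with earlier results of these data known. Named genes are the 5 markers, the 20 brightest, up to 6 brightest and the missing defining genes per list, the 10 largest line differences each way, all sex-linked genes, and the 5 largest partner and dye differences each way. Others (Alpi, Mki67, Slc2a1, Neurog3, Pax4, Acta2, Scd1, Nrn1, Retnlb, uncounted Paneth cell genes, Pyy, Osr2, Ascl2, hormones in 1 line) were chosen after their values were seen. A few genes that this rule names are not reported here. Alternatives varied background, scaling, flags, filter, probes, dye, threshold and arrays. The value table of the series was not used.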

Additional observations from a re-analysis of the deposited data

Results flagged for a closer look

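Dixon's test was applied to the 4 readings of each line for the 64 genes named by rule or shown reading by reading, and to 3 properties of the arrays, 134 groups in all. Chance sets off about 1 in 20 such groups, and 6 did. In Rpl11, a ribosomal protein, the line 2 reading beside CHIR99021 was 14.69, while the other 3 lay between 15.90 and 15.99. For Grn, granulin, the line 1 reading beside control was 14.37 against 14.54 to 14.57, and the line 2 reading beside VPA was 13.90 against 13.41 to 13.47. The remaining 3 lay within 0.2 of their neighbours in line 2: Fam234a beside both compounds (7.66 against 7.56), Norad beside VPA (9.77 against 9.86) and Apol10b beside both compounds (6.31 against 6.16 to 6.18).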

How the results depend on the processing

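The number of members (14418 to 14910 when each array was left out) and, when each array was left out, the counts higher in line 1 (465 to 493) and in line 2 (359 to 397) stayed within 1.5 times. Higher in line 1 were 304 genes after normexp and 794 with genes above background in 1 line. In the Cy5 of the control arrays, with 1 array per line, 986 were higher in line 1 and 582 in line 2. In Cy3 at a threshold of 1.5-fold, 1195 and 1073 were. No named line difference that was counted reversed in any setting tried. Fabp1 beside both compounds, not called, was at 0.13 with the block and without the line 2 combination array, where the main value was below 0. The partner contrasts depended on the design. Leaving out any array gave 0 genes beside VPA and 1 beside both compounds, and 75th percentile scaling gave 4 beside both. With the replicate block the counts were 2 beside VPA and 150 beside both. With the block and other settings, the count beside both was 299 without background subtraction, 330 with normexp, 73 with processed signal, 82 with the software's subtraction, 147 with 75th percentile scaling, 158 with quantile normalization, 144 with feature flags only, 59 with genes above background in 1 line, 121 with probe means, and 566 with a variance trend and robust fitting together (8 beside VPA, 1 beside CHIR99021); beside VPA it was 2 to 5 otherwise, 3 without background subtraction and 5 with normexp. With the block and 1 array left out, it was 3 to 540 beside both (3 without either control array, 10 without either VPA array, 14 without either CHIR99021 array, and 296 and 540 without the line 1 or line 2 combination array), 0 to 5 beside VPA and 0 to 3 beside CHIR99021; where an arm had 1 array it was assumed to vary like the others. Over 2-fold between dyes were 14 genes after normexp and loess together, against 40. The cause of these changes was not tested. The settings with 2 control arrays, the software's subtraction, arrays left out under the block, the block with other settings, and no combination arrays were chosen after seeing the data. Dim levels are limited by signal over background.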

Other observations

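Genes above background in 1 line only included further bright examples, chosen after their values were seen. Gas6, a ligand of receptor tyrosine kinases, read 13.83, 13.91, 13.82 and 13.58 in line 1 and 4.54 to 4.73 in line 2, at least 584-fold higher. Psmb8, a subunit of the immunoproteasome, was at least 23.6-fold higher in line 1. In line 2 only, the homeobox genes Hoxb6 (at least 17.9-fold higher), Hoxb9 (at least 12.6-fold) and Hoxa10 (at least 9.85-fold) were above background. In all, of 32110 genes or accessions with a probe, 433 were above background in line 1 only and 231 in line 2 only.

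A further 609 genes or accessions were well above background on all 8 arrays but left out because their spots carried an outlier mark. Among them were bright lineage and housekeeping genes, such as the ribosomal proteins Rpl8 and Rplp2, the glutathione peroxidase Gpx1, the goblet cell protein Clca1 and the enterocyte peptidase Enpep.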
